A study of Mus musculus with 6 samples.

Results

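Solute carriers outside the SLC25 family were followed in quadriceps of mice labelled as heterozygous for loss of Drp1, the GTPase that divides mitochondria, in muscle. They were taken from the deposited table as every row whose symbol begins with Slc and a number, without the 35 rows of the SLC25 family of mitochondrial carriers and without Slc2a4, Slc6a8, Slc8b1, Slc22a5 and Slc27a1. This gave 147 of the 11768 genes in the table. Of these, 143 belong to a solute carrier family, and 4 (Slc4a1ap, Slc7a6os, Slc9a3r2 and Slc2a4rg-ps) are named after a carrier without being one. Libraries labelled mDrp1HET came from heterozygous mice of a conventional muscle-specific knockout, and libraries labelled Control came from mice of genotype f/f, that is with floxed Drp1 alleles. All mice ate normal chow, the source was whole quadriceps, and age, sex, strain and whether RNA of several animals was pooled are not stated. The library titles carry the letters mck, but the driver of the muscle-specific deletion is not spelled out. Each group had 3 columns of log2 CPM, where CPM is a gene's reads scaled to a common library total.

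Solute carriers are membrane proteins that move sugars, lactate, amino acids, ions, metals, vitamins and nucleotide derivatives across the cell surface or into organelles. Some couple the movement to a sodium or proton gradient and others let a substrate follow its own gradient. In muscle they bring in fuel and amino acids, export lactate and protons, and set calcium, zinc and other ions, while carriers of the Golgi and lysosome serve glycosylation and nutrient sensing.

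The columns mDrp1HET replicate 3 and Control replicate 1 held one shared library. For 145 of the 147 members the Control column had 2 times the reads of the mDrp1HET column to within 0.01 reads, and any other pair of columns gave at most 2 such members. The largest difference between these columns for a member was 0.00044 log2 CPM, less than the sampling noise, so both were counted as 1 sample, whose group the labels leave uncertain. Values below are therefore from the other 4 libraries, mDrp1HET replicates 1 and 2 and Control replicates 2 and 3, in that order, with the shared library given apart. In the labelled comparison of 3 against 3 columns, the shared value enters both means, so each labelled fold change is the same difference drawn toward 0. Nothing in the labels says that each library is a different animal, and the p-values then cover no more than the spread among these libraries, which may be technical.

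Reads recovered from the table totalled 15782298 and 10394761 in the mDrp1HET libraries, 28664508 and 25019293 in the Control libraries, and 32372360 in the shared library as filed under mDrp1HET. Dnm1l, the gene of Drp1, stood at 7.30 and 6.73 log2 CPM in mDrp1HET and at 6.95 and 6.87 in Control libraries, with 6.69 in the shared library, and its log2 fold change was 0.11 (SE 0.23, 95% limits -0.40 and 0.62, adjusted p = 0.843 with limma). The groups overlapped at the targeted gene, and the sign of its fold change turned with median centring (-0.058). All 10 myofibre markers looked for were present, with a summed level of 123641 and 120878 CPM in mDrp1HET, 167145 and 166614 CPM in Control and 177774 CPM in the shared library. Myh4, the highest of them in every library, weighs most in that sum, at 15.31 and 15.62 log2 CPM in mDrp1HET and 16.27 and 16.44 in Control. Acta1, Myh1, Myh2, Atp2a1 and Ryr1 were also lower in both mDrp1HET libraries, Pvalb was higher in both, and Ckm, Mb and Tnnt3 overlapped. Summed macrophage markers (9 of 10 present, C1qb not listed) were at 400 and 360 CPM in mDrp1HET and 313 and 192 CPM in Control libraries. Summed fibro-adipogenic markers (10 of 10 present) were at 3575 and 3906 CPM in mDrp1HET and 3034 and 2030 CPM in Control libraries. Endothelial markers (10 of 10) summed to 392 and 275 CPM in mDrp1HET and 447 and 297 CPM in Control, adipocyte markers (10 of 10) to 1020 and 986 CPM in mDrp1HET and 908 and 599 CPM in Control, and erythroid markers (4 of 10) to 279 and 182 CPM in mDrp1HET and 197 and 150 CPM in Control. As filed under Control, the shared library had 241 CPM of macrophage and 2351 CPM of fibro-adipogenic markers. Its endothelial, adipocyte and erythroid sums were 312, 1418 and 148 CPM, the adipocyte sum being above the other 4 libraries. The part of these cell types in the results below was not tested. In whole muscle, fewer cells of a type and less RNA per cell cannot be told apart.

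Across the whole group of carriers, the libraries labelled mDrp1HET were not separated from Control by the test. With limma on all genes and Benjamini-Hochberg adjustment at 0.05, 0 of 147 members passed in the 4-library comparison, where 0.187% of all genes passed, and 0 passed in the labelled comparison, where 0.0% of all genes passed. The lowest adjusted p of a member was 0.0936 (Slc7a8) with 4 libraries and 0.753 in the labelled comparison. At an unadjusted p under 0.05, 22 members (15%) stood out with 4 libraries, against 16.6% of all genes. Of these, 20 were higher in mDrp1HET (13.6%, against 13.3% of all genes) and 2 were lower (1.36%, against 3.26%). With median centring the 19 members at that level (12.9%, against 16.8% of all genes) were 12 higher and 7 lower. The members' median log2 fold change minus that of all genes was 0.082 without mDrp1HET replicate 1 and -0.075 without mDrp1HET replicate 2. It was -0.045 without Control replicate 2 and 0.037 without Control replicate 3. In the labelled comparison 5 members had an unadjusted p under 0.05 (3.4%, against 3.9% of all genes), Slc7a8, Slc5a3, Slc43a3, Slc30a7 and Slc11a1, and all 5 were higher in mDrp1HET (3.04% of all genes). With median centring 3 of the 5 at that level were higher and 2 lower, and leaving out single columns gave between 0 and 25 members, the 25 without mDrp1HET replicate 3 (17%, against 24.1% of all genes). Array weights gave 38 members, 34 higher and 4 lower (25.9%, against 33.4% of all genes). In the main fits, apart from the few lower calls, these shares lie near those of all genes. The members' share was lower with 4-library median centring, and with array weights or without mDrp1HET replicate 3 as labelled. With robust moderation, 3 members passed in the 4-library comparison (2.04%, against 1.72% of all genes). They were Slc7a8, Slc5a3 and Slc43a3, with adjusted p of 0.0311, 0.0399 and 0.0478 with limma. Voom on the recovered reads passed 0 members, against 0.433% of all genes. Over the 15 alternatives run, the lowest adjusted p of a member lay between 0.0234 and 0.212.

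The members' fold changes were spread like those of all genes. Their median log2 fold change (mDrp1HET minus Control, 4 libraries) was 0.19, against 0.20 for all genes, and the quartiles were -0.04 and 0.48, against -0.06 and 0.46 for all genes. It was above 0 for 101 members (68.7%, against 69.6% of all genes) in this and in the labelled comparison, and above the median of all genes for 72 (49%, against 50%). Because the median of all genes is itself shifted by 0.20, a fold change near that value is that of the middle gene of the table. Median centring lowered that median to 0.035. Counts above and below the median of all genes are therefore given for the classes, while fold changes of single genes are given against 0. Both mDrp1HET libraries lay above both Control libraries for 63 members (42.9%, against 38.6% of all genes) and below both for 10 members (6.8%, against 11.3%). For the remaining members the groups overlapped.

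**Figure D1:**
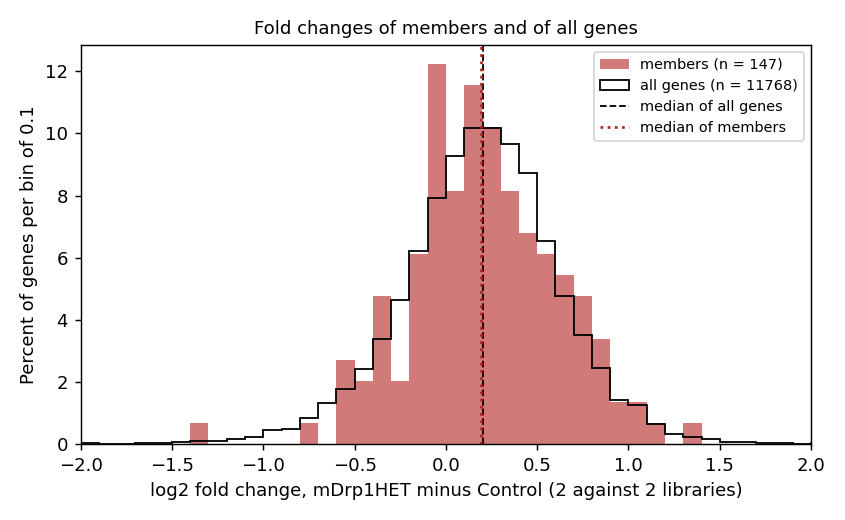
Percent of genes per bin of 0.1 of the log2 fold change, mDrp1HET minus Control with 2 libraries each, for the 147 members (filled) and all 11768 genes (outline), with the members' median (dotted, 0.19) and that of all genes (dashed, 0.20). Both shapes have nearly the same centre, members lie between -1.34 and 1.35, and 14 genes with a change beyond 2 in size (0 of them members) are not drawn.

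Levels between members can be set side by side only per transcript length, and on that scale a few carriers of amino acids, lactate and glucose-6-phosphate led. Slc38a4, a sodium-coupled neutral amino acid transporter, had 53.7 CPM per kb of its longest transcript (range 45.8 to 64.0 over the 5 separate libraries). Slc16a3, the lactate exporter MCT4 of glycolytic muscle, had 31.7 CPM per kb (27.4 to 39.5). Slc37a4, which carries glucose-6-phosphate into the endoplasmic reticulum, had 31.6 CPM per kb (24.7 to 36.7). The ranges of Slc16a3 and Slc37a4 overlapped, and both lay below that of Slc38a4. Next came Slc44a2, a choline transporter-like protein (23.4 CPM per kb), Slc41a3, a magnesium carrier of the SLC41 family (21.6), and Slc48a1, which moves haem out of endosomes (21.4), whose ranges overlapped one another. Slc41a3 and Slc48a1 were named after their values were seen. Slc16a1, the lactate transporter MCT1 of oxidative tissue, stood at 7.70 CPM per kb. The facilitative glucose transporter gene Slc2a1 and the amino acid transporter gene Slc7a5 were looked for and are not listed in the deposited table.

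**Figure D2:**
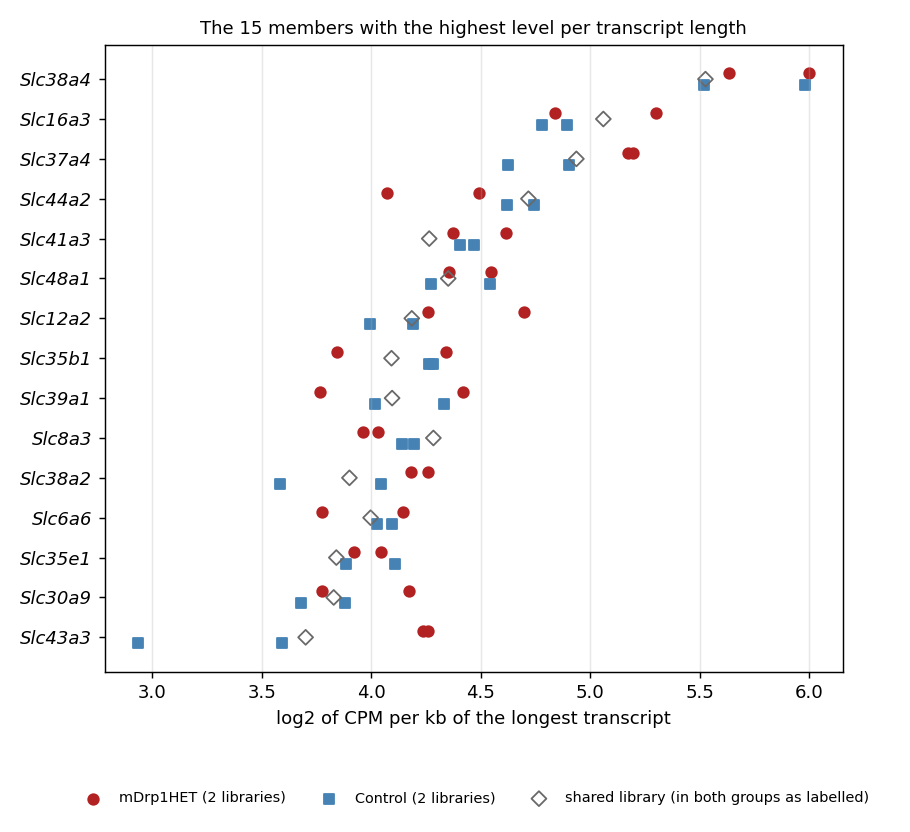
Level of the 15 members highest per transcript length, as log2 of CPM per kb of the longest transcript, in each mDrp1HET library (circles), each Control library (squares) and the shared library (diamonds). Slc38a4 is highest in every library, and for most of these genes the circles and squares overlap, while both circles lie right of both squares for Slc37a4, Slc12a2, Slc38a2 and Slc43a3 and left of them for Slc44a2 and Slc8a3.

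Amino acid and peptide carriers held the member with the lowest p. Of 28 measured, 17 lay above and 11 below the median of all genes, both mDrp1HET libraries were above both Control libraries for 13 and below for 1 (46.4% and 3.57%, against 38.6% and 11.3% of all genes), and 0 passed the test. Slc7a8 (Entrez 50934, GRCm38.p6 chromosome 14, 54722215 to 54781886) encodes LAT2, a sodium-independent exchanger of neutral amino acids. It stood at 3.34 and 3.87 log2 CPM in mDrp1HET, 2.16 and 2.35 in Control and 3.63 in the shared library. The groups did not overlap and the shared library lay between the mDrp1HET values. The mDrp1HET mean exceeded the Control mean by 1.35 on the log2 scale (SE 0.31, 95% limits 0.68 and 2.03, adjusted p = 0.0936 with limma). Without mDrp1HET replicate 1, which left 1 library in that group, the fold change was 1.62.

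The other amino acid carriers were mixed. Slc3a2, the heavy chain that LAT2 needs at the cell surface, was at 4.72 and 4.90 log2 CPM in mDrp1HET and at 4.77 and 4.42 in Control libraries, so its groups overlapped. Slc1a5, the glutamine transporter ASCT2, was at 4.08 and 4.19 log2 CPM in mDrp1HET and 3.67 and 3.06 in Control libraries, a fold change of 0.77 on the log2 scale (SE 0.29, adjusted p = 0.237 with limma). Its shared-library value, 4.40, was above all 4. Slc1a3, a glutamate transporter, had a fold change of 0.52 on the log2 scale (SE 0.31) and also its highest value, 4.14 log2 CPM, in the shared library. Slc38a2, the amino acid-regulated transporter SNAT2, stood at 6.87 and 6.79 log2 CPM in mDrp1HET and at 6.66 and 6.20 in Control libraries, with a fold change of 0.41 on the log2 scale (SE 0.22). Slc38a9, the lysosomal arginine sensor of mTORC1, was named after its values were seen and stood at 4.65 and 4.42 log2 CPM in mDrp1HET against 4.14 and 3.93 in Control libraries. Slc36a1, a proton-coupled amino acid transporter of lysosomes, was the 1 member of this class with both mDrp1HET libraries below Control. Its values were 2.19 and 2.05 log2 CPM in mDrp1HET, 2.75 and 2.63 in Control and 2.72 in the shared library, a fold change of -0.57 on the log2 scale (SE 0.31, 95% limits -1.25 and 0.12, adjusted p = 0.381 with limma).

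Other well-known amino acid carriers had overlapping groups. Slc6a6, the taurine transporter, stood at 6.41 and 6.78 log2 CPM in mDrp1HET and 6.72 and 6.65 in Control libraries. Slc38a4 stood at 7.97 and 7.61 log2 CPM in mDrp1HET and 7.49 and 7.96 in Control libraries. Slc7a1, the cationic amino acid transporter CAT1, was at 1.91 and 1.43 log2 CPM in mDrp1HET and 1.50 and 1.80 in Control libraries, so the 3 genes showed no separation of the groups. Slc6a9, the glycine transporter GLYT1, was at 1.35 and 2.33 in mDrp1HET and 2.15 and 2.28 log2 CPM in Control libraries. The peptide transporter Slc15a2 was the least reproducible member within a group, at 1.98 and 2.69 log2 CPM in mDrp1HET, 3.60 and 0.49 in Control and 0.16 in the shared library. Without Control replicate 2 its log2 fold change was 1.84 (adjusted p = 0.0405 with limma), against 0.29 (SE 0.74) with all 4 libraries, and 1.25% of all genes passed under that setting. Without Control replicate 3 the sign turned (-1.27). Slc38a6, of the SLC38 family of amino acid carriers, had its lowest value, 1.16 log2 CPM, in the shared library, and its groups overlapped.

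Slc43a3, placed here by its family number, is known as a transporter of purine nucleobases. It lies on chromosome 2 (84936545 to 84958509, GRCm38.p6) and stood at 5.63 and 5.65 log2 CPM in mDrp1HET, 4.98 and 4.33 in Control and 5.09 in the shared library. The mDrp1HET values lay close together and above the other 3. On the log2 scale the fold change was 0.98 (SE 0.26, 95% limits 0.41 and 1.55, adjusted p = 0.133 with limma).

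Sugar and polyol carriers included both measured transporters of myo-inositol, an osmolyte and lipid precursor. Of 8 carriers by family number, 5 lay above and 3 below the median of all genes and 0 passed. Slc5a3 (chromosome 16, 92058322 to 92087473, GRCm38.p6), the sodium-coupled myo-inositol transporter, was at 4.37 and 4.54 log2 CPM in mDrp1HET, 3.52 and 3.22 in Control and 3.37 in the shared library. Both mDrp1HET libraries were above the other 3. Its fold change was 1.08 on the log2 scale (SE 0.26, 95% limits 0.51 and 1.65, adjusted p = 0.109 with limma). Its exons overlap those of Mrps6 on the same strand, and how reads of both were counted is not given in the sources used here. Slc2a13, the proton-coupled myo-inositol transporter, was named after its values were seen. It stood at 2.45 and 1.67 log2 CPM in mDrp1HET, 1.31 and 1.06 in Control and 0.90 in the shared library. Its log2 fold change was 0.87 (SE 0.40, adjusted p = 0.299 with limma). These levels rest on 86 and 33 reads in mDrp1HET and 71 and 52 in Control libraries.

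Among glucose transporters, Slc2a12 (GLUT12) stood at 4.86 and 4.58 log2 CPM in mDrp1HET, 4.24 and 3.89 in Control and 3.91 in the shared library. The log2 fold change was 0.65 (SE 0.25, adjusted p = 0.249 with limma). Slc2a3 (GLUT3) overlapped, at 2.29 and 2.85 log2 CPM in mDrp1HET and 2.47 and 2.54 in Control libraries. Slc45a4, of a family named for sugar transport, had a fold change of -0.35 on the log2 scale (SE 0.28), and its groups overlapped too.

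Both lactate transporters of muscle had overlapping groups. Slc16a3 (MCT4) stood at 7.42 and 6.95 log2 CPM in mDrp1HET, 6.89 and 7.01 in Control and 7.18 in the shared library, a fold change of 0.23 on the log2 scale (SE 0.22, adjusted p = 0.617 with limma). Slc16a1 (MCT1) was at 5.92 and 4.08 log2 CPM in mDrp1HET, 5.52 and 4.49 in Control and 4.61 in the shared library, so the 2 mDrp1HET libraries held its highest and lowest values. Of the 8 monocarboxylate carriers 5 lay above and 3 below the median of all genes, and 0 passed. Slc16a9, a carnitine carrier in human, stood at 3.44 and 3.90 log2 CPM in mDrp1HET and 3.19 and 2.72 in Control libraries (log2 fold change 0.71, SE 0.30). Slc16a10, a carrier of aromatic amino acids, had a log2 fold change of 0.44 (SE 0.23). The levels of Slc16a6 and Slc16a12 overlapped between the groups.

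Of the 16 zinc carriers of the Slc30 and Slc39 families, 5 had both mDrp1HET libraries above both Control libraries, Slc30a4, Slc30a5, Slc30a7 and Slc39a10 among them, and 0 passed the threshold. That share is under the 38.6% of all genes. SLC30 proteins move zinc out of the cytosol, into vesicles, the Golgi or the outside, and SLC39 proteins move it in. Genes of the Slc30 family had a median log2 fold change of 0.19 (7 measured, 3 with both mDrp1HET libraries above Control and 0 below), and those of the Slc39 family one of -0.09 (9 measured, 2 above and 0 below, where 11.3% of all genes were below). Slc30a4, which loads zinc into vesicles, stood at 6.19 and 5.97 log2 CPM in mDrp1HET, 5.38 and 5.44 in Control and 5.35 in the shared library. The mDrp1HET mean exceeded the Control mean by 0.67 on the log2 scale (SE 0.22, 95% limits 0.20 and 1.14, adjusted p = 0.195 with limma). Slc30a7, a Golgi zinc importer, was at 4.56 and 4.24 log2 CPM in mDrp1HET, 3.50 and 3.58 in Control and 3.68 in the shared library. On the log2 scale the fold change was 0.86 (SE 0.26, 95% limits 0.29 and 1.42, adjusted p = 0.172 with limma). In both genes the 2 mDrp1HET values lay above the other 3.

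A pair of further zinc genes was named after their values were seen. Slc30a5, also of the secretory pathway, had a fold change of 0.51 on the log2 scale (SE 0.26), and Slc39a10, a zinc importer of the cell surface, had one of 0.76 (SE 0.28, adjusted p = 0.232 with limma). By contrast Slc30a1, the zinc exporter of the cell surface, was at 3.97 and 3.44 log2 CPM in mDrp1HET and 4.02 and 3.76 in Control libraries, which overlapped. Slc39a14, which also carries iron, overlapped as well. Slc39a13, a zinc carrier linked to connective tissue, had a fold change of -0.34 on the log2 scale (SE 0.26), and its groups overlapped.

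Slc30a1 is a known target of the metal-sensing factor MTF-1, so its promoter and those of Slc30a4 and Slc30a7 are shown with matches to the core of its binding motif, searched as TGCACNC and TGCGCNC on both strands in the 250 bases before the RefSeq start (GRCm38.p6). Capitals mark a match, and each is written 5′ to 3′ along the gene's strand. Slc30a1 is at chr1:191906531-191906780 (plus strand), Slc30a4 at chr2:122702664-122702913 (minus strand) and Slc30a7 at chr3:116007407-116007656 (minus strand).
Slc30a1: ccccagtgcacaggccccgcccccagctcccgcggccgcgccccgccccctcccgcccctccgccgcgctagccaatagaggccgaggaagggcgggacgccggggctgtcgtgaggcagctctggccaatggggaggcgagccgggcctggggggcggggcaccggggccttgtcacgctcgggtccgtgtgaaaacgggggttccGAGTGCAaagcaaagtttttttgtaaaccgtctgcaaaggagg
Slc30a4: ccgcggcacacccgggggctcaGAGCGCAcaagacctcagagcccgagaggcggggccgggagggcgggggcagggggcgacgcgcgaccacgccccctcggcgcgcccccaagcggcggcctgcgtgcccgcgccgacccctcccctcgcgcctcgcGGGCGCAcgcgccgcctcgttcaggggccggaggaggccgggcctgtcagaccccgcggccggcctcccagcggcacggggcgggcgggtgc
Slc30a7: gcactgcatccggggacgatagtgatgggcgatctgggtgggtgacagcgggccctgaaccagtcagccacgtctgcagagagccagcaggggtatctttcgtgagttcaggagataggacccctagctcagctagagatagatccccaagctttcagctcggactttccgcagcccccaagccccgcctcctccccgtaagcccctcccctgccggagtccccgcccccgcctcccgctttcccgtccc
There was 1 match for Slc30a1, whose groups overlapped, 2 for Slc30a4 and 0 for Slc30a7, whose mDrp1HET values both lay above Control. RefSeq promoters were at hand for 116 of the 147 members. A match was found in 6 of the 14 Slc30 and Slc39 promoters in the RefSeq table (42.9%), in 38 of 116 member promoters (32.8%) and in 30.5% of the 9133 promoters of all genes in the table. These are matches of letters and say nothing of binding.

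Other metal carriers were mixed as well, and of 23 metal ion carriers in all 10 lay above and 13 below the median of all genes. Slc11a1, a proton-coupled metal exporter of macrophage phagosomes, was at 2.45 and 1.95 log2 CPM in mDrp1HET, 1.23 and 0.92 in Control and 1.96 in the shared library. Those values rest on 86 and 40 reads in mDrp1HET and 67 and 47 in Control libraries. The fold change of Slc11a1 was 1.12 on the log2 scale (SE 0.38, 95% limits 0.30 and 1.95, adjusted p = 0.207 with limma). The summed macrophage markers, 400 and 360 CPM in mDrp1HET against 313 and 192 CPM in Control libraries, were also higher in mDrp1HET, and their part in the result was not tested. The shared library had 241 CPM of those markers. The iron genes Slc40a1, the exporter ferroportin, and Slc11a2, the importer DMT1, overlapped between groups, at 4.95 and 4.22 log2 CPM in mDrp1HET against 4.86 and 4.39 in Control for Slc40a1. Slc41a1, a magnesium carrier, was lower in both mDrp1HET libraries, at 4.52 and 4.49 log2 CPM, against 5.47 and 4.60 in Control and 4.70 in the shared library (log2 fold change -0.53, SE 0.29, adjusted p = 0.377 with limma). Slc31a2, of the copper transporter family, had its lowest value, 2.45 log2 CPM, in the shared library, below all 4 others by 0.47.

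Carriers of sodium, protons, chloride, potassium, calcium and bicarbonate had the lowest median of the larger classes. Of 27 members, 9 lay above and 18 below the median of all genes, their median log2 fold change was 0.00063, and 0 passed. Both mDrp1HET libraries were above both Control libraries for 11 and below for 4 (40.7% and 14.8%, against 38.6% and 11.3% of all genes). Slc26a10, a poorly characterised member of the anion exchanger family, had the largest negative fold change of the 147. It stood at 0.28 and 0.95 log2 CPM in mDrp1HET, 2.36 and 1.55 in Control and 0.82 in the shared library, a fold change of -1.34 on the log2 scale (SE 0.44, 95% limits -2.30 and -0.38, adjusted p = 0.202 with limma). These levels rest on 19 and 20 reads in mDrp1HET, 147 and 73 in Control libraries, and its exons overlap those of B4galnt1 on the opposite strand. Slc12a7, the potassium-chloride cotransporter KCC4, was at 2.76 and 2.33 log2 CPM in mDrp1HET and 3.39 and 2.77 in Control libraries (log2 fold change -0.53, SE 0.33). Of 7 sodium-proton exchangers of the SLC9 family, 1 lay above and 6 below the median of all genes. Both mDrp1HET libraries were above both Control libraries for 2 of the 7 and below for 1 (28.6% and 14.3%, against 38.6% and 11.3% of all genes). The 1 below was Slc9a2, named after its values were seen, with a fold change of -0.32 on the log2 scale (SE 0.22).

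The sodium-calcium exchangers went opposite ways in these 4 libraries. Slc8a1 (NCX1), which removes calcium from the cell in exchange for sodium, stood at 7.17 and 6.98 log2 CPM in mDrp1HET, 6.62 and 6.55 in Control and 6.63 in the shared library. The log2 fold change was 0.49 (SE 0.20, 95% limits 0.04 and 0.93, adjusted p = 0.272 with limma). Slc8a3 (NCX3), the skeletal muscle form, was chosen after its values were seen and stood at 6.33 and 6.26 log2 CPM in mDrp1HET, 6.50 and 6.44 in Control and 6.58 in the shared library. The difference between the genes was not tested, and neither passed.

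Among chloride and bicarbonate carriers, Slc4a7 (NBCn1), which brings sodium and bicarbonate into the cell, was at 4.86 and 4.32 log2 CPM in mDrp1HET and 3.95 and 3.96 in Control libraries. The mDrp1HET mean exceeded the Control mean by 0.64 on the log2 scale (SE 0.27, adjusted p = 0.269 with limma), and its shared-library value was 3.79. Slc12a2, the sodium-potassium-chloride cotransporter NKCC1, was at 7.40 and 6.96 log2 CPM in mDrp1HET and 6.70 and 6.90 in Control libraries (log2 fold change 0.39, SE 0.22). Slc4a3 and Slc4a4, an anion exchanger and a sodium-bicarbonate cotransporter, overlapped, with Slc4a4 lowest in the shared library at 5.53 log2 CPM.

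**Figure D3:**
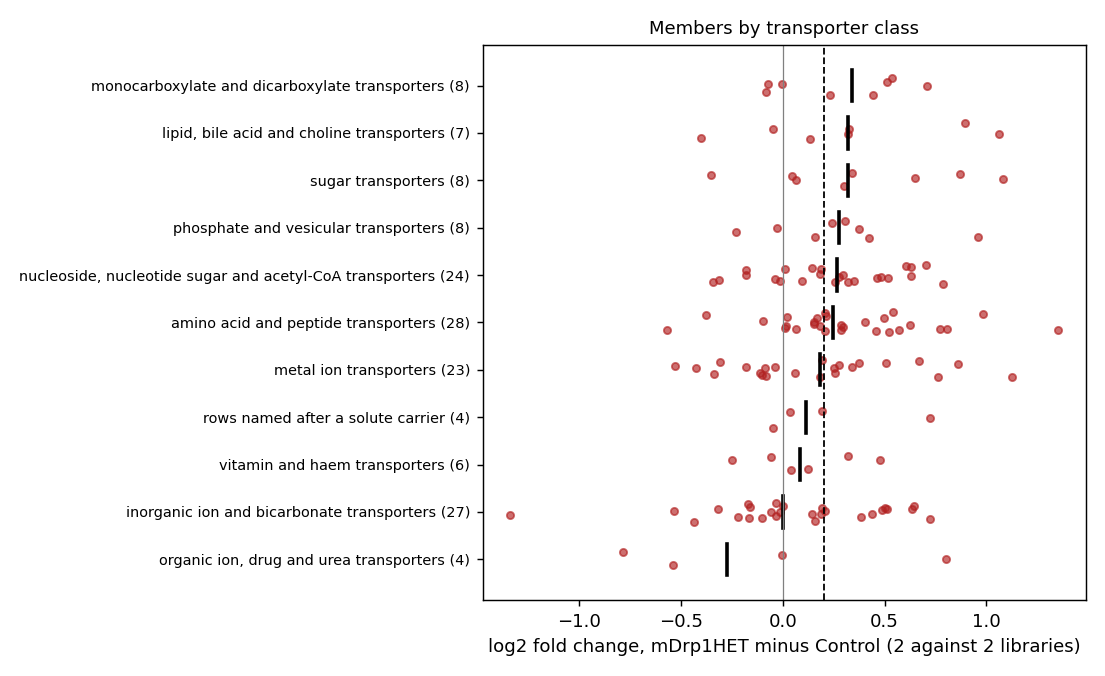
Log2 fold change (mDrp1HET minus Control, 2 libraries each) of every member, by transporter class with the number of members in brackets. Points are genes, with vertical jitter only for display, bars are class medians, and the dashed line is the median of all genes, 0.20. Every class spreads across that line, and the medians lie between -0.27 for 4 organic ion carriers and 0.34 for 8 monocarboxylate carriers.

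Carriers of nucleosides, nucleotide sugars and acetyl-CoA numbered 24, of which 13 lay above and 11 below the median of all genes and 0 passed. Nucleotide sugar carriers feed the glycosylation enzymes of the Golgi and endoplasmic reticulum. Slc35a5 stood at 3.35 and 3.38 log2 CPM in mDrp1HET, 2.95 and 2.20 in Control and 2.89 in the shared library (log2 fold change 0.79, SE 0.33, adjusted p = 0.268 with limma). Slc35e4, an orphan of the family, was at 3.88 and 4.16 log2 CPM in mDrp1HET, 3.42 and 3.37 in Control and 3.88 in the shared library (log2 fold change 0.63, SE 0.26). Named after their values were seen, Slc35a3, the UDP-N-acetylglucosamine carrier, and Slc35b2, which carries the sulfate donor PAPS, had log2 fold changes of 0.63 (SE 0.27) and 0.60 (SE 0.26). Exons of Slc35a3 overlap those of Gm43191 on the same strand. Slc35a2, the UDP-galactose carrier, was below Control in both mDrp1HET libraries, at 1.93 and 1.87 log2 CPM against 2.06 and 2.43 in Control (log2 fold change -0.34, SE 0.34). The groups overlapped for Slc35c1, the GDP-fucose carrier, at 1.93 and 0.88 log2 CPM in mDrp1HET and 1.69 and 1.75 in Control libraries. Slc29a1, the nucleoside transporter ENT1, stood at 4.40 and 4.54 log2 CPM in mDrp1HET and 4.38 and 4.18 in Control, and Slc33a1, the acetyl-CoA carrier of the endoplasmic reticulum, at 3.46 and 3.47 in mDrp1HET and 3.18 and 3.23 log2 CPM in Control libraries. For both, the mDrp1HET libraries were above Control by less than the SE of the fold change.

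Phosphate and vesicular carriers numbered 8, with 5 above and 3 below the median of all genes and 0 past the threshold. Slc18a2, the vesicular monoamine transporter VMAT2, was at 2.98 and 2.51 log2 CPM in mDrp1HET, 1.85 and 1.72 in Control and 1.79 in the shared library. On the log2 scale the fold change was 0.96 (SE 0.33, adjusted p = 0.217 with limma), on 124 and 59 reads in mDrp1HET and 103 and 82 in Control libraries. Slc37a4 was at 6.43 and 6.40 log2 CPM in mDrp1HET, 5.85 and 6.13 in Control and 6.17 in the shared library (log2 fold change 0.42, SE 0.21, adjusted p = 0.342 with limma). The phosphate importers Slc20a1 and Slc20a2 overlapped between groups, and Slc37a3 was at 3.45 and 3.44 log2 CPM in mDrp1HET and 3.68 and 3.68 in Control libraries.

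Bile acid, lipid and choline carriers numbered 7, with 4 above and 3 below the median of all genes and 0 past the threshold. Slc10a1, the bile acid importer NTCP known from liver, was at 2.48 and 2.12 log2 CPM in mDrp1HET, 1.47 and 1.01 in Control and 1.35 in the shared library (log2 fold change 1.06, SE 0.37, adjusted p = 0.214 with limma), on 88 and 45 reads in mDrp1HET and 79 and 50 in Control libraries. Slc10a6, a carrier of sulfated steroids, had a fold change of 0.90 on the log2 scale (SE 0.38). It had 50 and 47 reads in mDrp1HET and 58 and 51 in Control libraries. Slc44a2 was lower in both mDrp1HET libraries, at 6.10 and 6.52 log2 CPM, against 6.77 and 6.65 in Control and 6.75 in the shared library (log2 fold change -0.40, SE 0.22, adjusted p = 0.381 with limma). The choline transporter Slc44a1 overlapped between groups. Slc27a4, a fatty acid transport protein, stood at 2.99 and 3.27 log2 CPM in mDrp1HET and 3.04 and 2.58 in Control libraries, which overlapped (log2 fold change 0.32, SE 0.31).

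Organic ion and drug carriers were few. Of 4, 1 lay above and 3 below the median of all genes. Slc22a23, an orphan organic ion carrier on chromosome 13 (34179158 to 34345275, GRCm38.p6), was at 2.92 and 2.77 log2 CPM in mDrp1HET, 3.91 and 3.35 in Control and 3.01 in the shared library. On the log2 scale the fold change was -0.78 (SE 0.30, 95% limits -1.44 and -0.13, adjusted p = 0.244 with limma). Slc47a1, the exporter MATE1, was at 3.97 and 2.30 log2 CPM in mDrp1HET libraries, which overlapped Control, and its log2 fold change of -0.54 (SE 0.46) turned to 0.30 without mDrp1HET replicate 2. Slc22a15 had a fold change of 0.80 on the log2 scale (SE 0.43). It had 70 and 26 reads in mDrp1HET and 67 and 39 in Control libraries. Slc22a4, a carrier of ergothioneine, overlapped between groups. Vitamin and haem carriers numbered 6, 2 above and 4 below the median of all genes. The largest log2 fold changes among them were 0.48 (SE 0.39) for the riboflavin transporter Slc52a2 and 0.32 (SE 0.27) for the ascorbate transporter Slc23a2. Slc52a2 had 54 and 27 reads in mDrp1HET and 70 and 47 in Control libraries. The lysosomal carrier Slc46a3, the thiamine transporter Slc19a2 and the folate transporter Slc19a1 overlapped between groups.

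**Figure D4:**
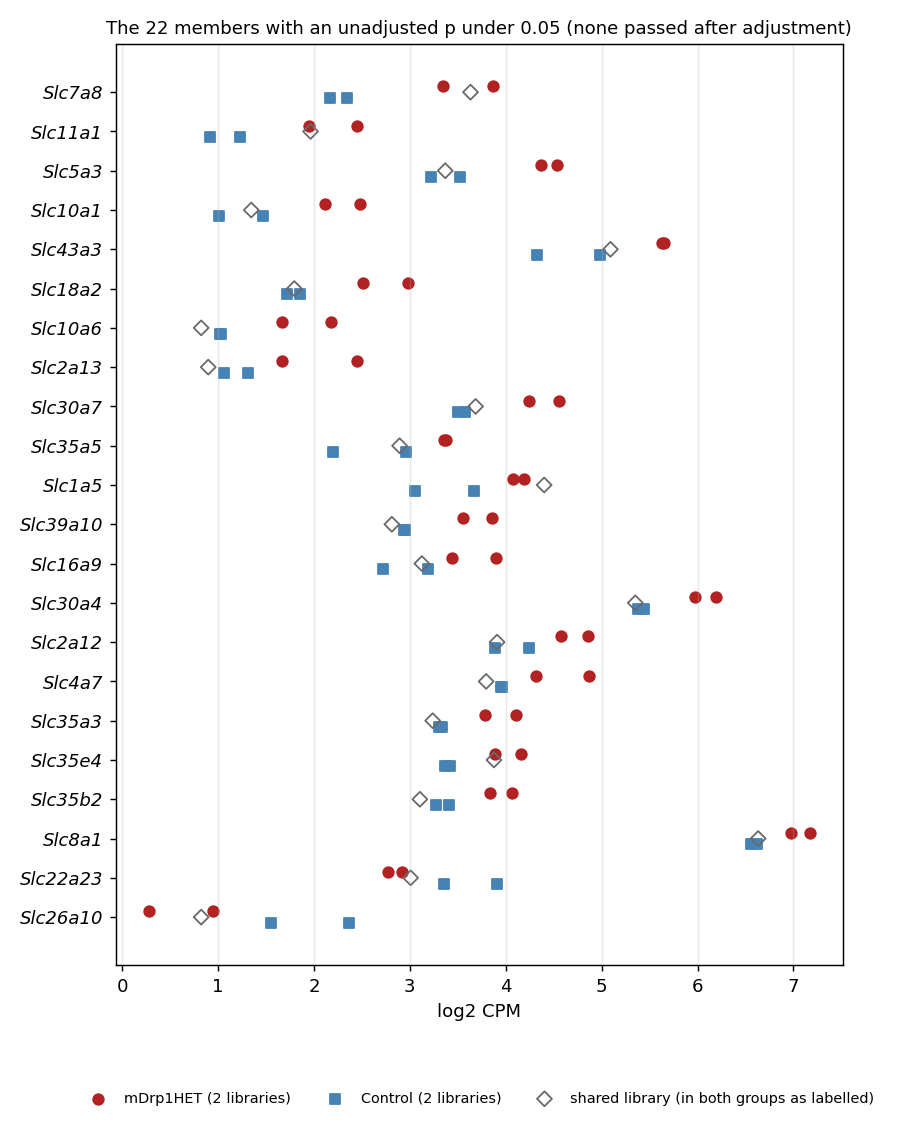
Log2 CPM of the 22 members with an unadjusted p under 0.05 in the 4-library comparison, ordered by fold change, in each mDrp1HET library (circles), each Control library (squares) and the shared library (open diamonds). For 20 genes both circles lie right of both squares and for Slc22a23 and Slc26a10 left of them, while the diamond lies with the circles for some genes, such as Slc7a8 and Slc11a1, and with the squares for others, such as Slc5a3 and Slc30a4.

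The shared library did not take a fixed place. It lay below all 4 other libraries for 50 members (34%, against 25.6% of all genes) and above all 4 for 6 members (4.08%, against 7.03%). Among the members where it lay farthest outside were Slc31a2, Slc4a4, Slc38a6 and Slc15a2, and in these it lay below.

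Fold changes also went with the base composition of the transcripts. Across the 146 members with a GENCODE transcript, Spearman's rho between the 4-library log2 fold change and transcript GC content was -0.30, against -0.39 across 11211 genes. Both are descriptions across genes of the same 4 libraries. Among the 49 members with the lowest GC content, 28 had both mDrp1HET libraries above both Control libraries and 0 below (57.1%, against 55.8% above and 2.86% below among 4301 genes of that GC range), with a median log2 fold change of 0.30, against 0.34 for those genes. Among the 49 with the highest GC content, 15 were above and 7 below (30.6% and 14.3%, against 20.8% and 22.5% of 3313 genes of that range), with a median of 0.05, against 0.02. Removal of each library's trend on GC content left 20 members with an unadjusted p under 0.05 (13.7%, against 12.9% of all genes) and 0 past the threshold, where 8 of all genes passed. The part of base composition in the fold changes was not tested further. The 4 rows that are not carriers had 1 member above and 3 below the median of all genes, with a median of 0.11.

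**Figure D5:**
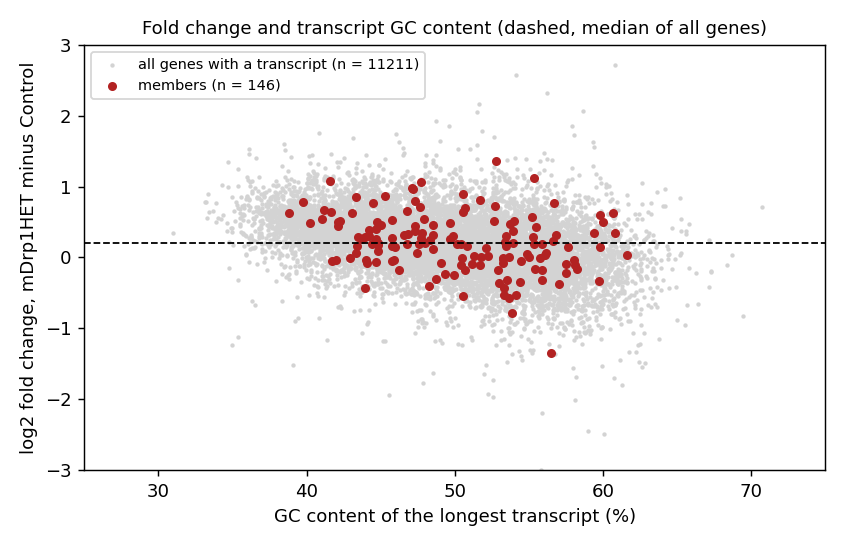
Log2 fold change (mDrp1HET minus Control, 2 libraries each) against the GC content of the longest transcript in percent, for 146 members (large points) and 11211 genes (small points), with the median of all genes dashed. Members on the left, with low GC content, lie mostly above the line (median 0.30 for the 49 with the lowest GC content). Those on the right lie more often below it (median 0.05 for the 49 with the highest). In all, 1 gene lies outside the drawn range.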

How the data were processed

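The authors deposited 1 table of log2 CPM values and 1 p-value per gene, per the file headers. Total RNA was depleted of ribosomal RNA and made into stranded TruSeq libraries, which were sequenced on an Illumina instrument in pools whose makeup is not given, per the labels' protocols. FastQC, DESeq2 1.30.0 and GRCm38 are listed in the submitters' processing notes, and the aligner and counter are not given in the sources used here. Whole reads were recovered from the deposited log2 CPM for 100% of values (tolerance 0.01 reads). The deposited p-value was not used.

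All 11768 genes were fitted with limma 3.58.1 (R 4.3.3) with an intensity trend, two-sided, with Benjamini-Hochberg adjustment and a threshold of 0.05, on 3 against 3 columns as labelled and on 2 against 2 libraries without the shared library. The members, classes and lists were chosen with earlier results of these data known. Classes follow family numbers. Named genes were the 2 with the smallest p in each direction and class, 28 measured of 30 fixed for known roles, the 5 with the highest mean log2 CPM, the 5 with the largest positive and negative fold changes, and the 5 whose shared-library value lay farthest outside the others. The values of 2 genes that the rule takes are not reported here, and both stay in all counts. Fold changes are given for those at least as large as their SE and for Slc15a2, whose values differed most within a group, and other genes are said to be named after their values were seen. Transcript length and GC content came from the longest GENCODE M21 transcript of each Entrez number, and promoters and coordinates from RefSeq GRCm38.p6. The fit was tested on simulated data. Alternatives were other scalings, added constants of 1 and 0.1 CPM, minimum means, other variance models, array weights, voom, leaving out each library and, chosen after seeing the data, removal of the GC trend. The lowest read number of a member was 12, and 71 members had under 100 reads in at least 1 column, which limits their precision.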

Additional observations from a re-analysis of the deposited data

How the results depend on the processing

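No paired analysis was possible because the labels name no pairs of libraries across the groups. In the labelled comparison 0 members passed under each of 17 alternatives, which passed between 0 and 2 of all genes, so this count says nothing about stability. In the 4-library comparison 0 passed under 12 of 15 alternatives. Of these 12, those that left out no library passed between 0 (median centring) and 51 (voom, 0.433%) of all genes. That count therefore says little about stability. Robust moderation passed 3 (202 of all genes), and leaving out single libraries passed between 0 and 1 (Slc15a2 without Control replicate 2, with 147 of all genes, and Slc7a8 without mDrp1HET replicate 1, with 299). The causes were not tested. The members' median minus that of all genes lay between -0.075 and 0.082 with 4 libraries, the lowest without mDrp1HET replicate 2 and the highest without mDrp1HET replicate 1, and between -0.039 and 0.028 as labelled. Among the 45 genes with a recomputed log2 fold change, 43 kept their direction under every alternative run. These genes were chosen mostly for a fold change at least as large as its SE in the same libraries, so that count says little about stability. Slc47a1 ranged from -1.38 to 0.30 and Slc15a2 from -1.27 to 1.84 when single libraries were left out. The small log2 fold change of Dnm1l turned as well. In the labelled comparison it was -0.039 with median centring, -0.012 with quantile normalization, -0.014 with array weights, -0.083 with the GC trend removed (added after seeing the data) and between -0.13 and 0.18 without single columns. With 4 libraries it was -0.058 with median centring, -0.014 with quantile normalization, -0.12 with the GC trend removed and between -0.18 and 0.40 without single libraries. Where a group was left with 1 library, that library was assumed to vary like the others. With 2 libraries a group and 71 members under 100 reads in at least 1 column, precision is limited, and a count of 0 does not show that the carriers did not differ.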
